A study of Mus musculus with 16 samples.

Results

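Capped, mirtron and snoRNA-derived miRNAs are mature miRNAs whose precursors are made without the Dgcr8-containing Microprocessor complex. The 10 studied here were chosen by their names on the array among 1881 mouse miRNAs, with earlier results of these data known. They fall into 3 classes by origin. The class of capped or short hairpins held mmu-miR-320-3p and mmu-miR-484. The mirtrons were mmu-miR-702-3p, mmu-miR-877-3p, mmu-miR-1224-5p, mmu-miR-3102-5p and mmu-miR-3102-3p. The snoRNA-derived class held mmu-miR-664-3p, mmu-miR-1839-5p and mmu-miR-1839-3p. Both arms of miR-3102 and of miR-1839 come from 1 hairpin each, so the 10 miRNAs represent 8 hairpins.

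The tissue was the wall of the lateral ventricle (LV) of male littermates aged 8 months, 8 WT and 8 Dgcr8+/-, with 1 mouse per 1-colour Agilent array. Dgcr8+/- mice carry 1 functional copy of Dgcr8 in all cells, and the line was backcrossed to C57BL/6J, the background that the WT littermates share. No cell type was sorted, so the arrays report the LV wall as a whole, in which fewer cells of a type and less RNA per cell cannot be told apart. The study made these arrays to find the miRNAs through which Dgcr8 acts on the dopamine receptor Drd1.

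Most miRNAs are cut from a long primary transcript by Drosha and its partner Dgcr8, exported, and cut again by Dicer. Mirtrons skip the first cut because splicing yields a short intron that folds into the hairpin itself. The short hairpins of miR-320 and miR-484 are formed directly by transcription and carry a cap at their 5′ end, and some snoRNAs, which normally guide RNA modification, are also processed into miRNAs. All of these routes still use Dicer.

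The mature sequences show what the classes share beyond their names. Of the 10 miRNAs, 8 were matched to a mature sequence in RefSeq for the build GRCm38.p6. They are printed 5′ to 3′ with the seed (bases 2 to 8, which pair with target mRNAs) in capitals, and they are shown because the seed decides which of them could act on the same targets.

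mmu-miR-484: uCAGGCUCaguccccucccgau

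mmu-miR-702-3p: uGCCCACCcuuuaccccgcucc

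mmu-miR-877-3p: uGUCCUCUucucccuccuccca

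mmu-miR-1224-5p: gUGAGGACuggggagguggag

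mmu-miR-3102-5p: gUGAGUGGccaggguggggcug

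mmu-miR-3102-3p: gAGCACCCcauuggcuacccaca

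mmu-miR-664-3p: uAUUCAUUuacuccccagccua

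mmu-miR-1839-5p: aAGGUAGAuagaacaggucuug

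No pair among these 8 shared a seed. The only mature miRNA in the table with the seed of any of them was mmu-miR-702-5p, which has the seed of mmu-miR-3102-5p and was detected on 0 arrays. The 5p arms of the mirtrons miR-1224, miR-3102 and miR-702 begin with GUGAG, letters with which many introns begin. That of the mirtron miR-877 begins with GUAGA instead. Of 1679 mature sequences in the table, 14 (0.834%) begin that way.

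The hairpins of miR-877 and miR-1224 are printed because they show the mirtron as a whole intron, with the first and last 2 bases in capitals (chr17:35960730-35960814, minus strand, and chr16:20604452-20604536, plus strand).

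Mir877: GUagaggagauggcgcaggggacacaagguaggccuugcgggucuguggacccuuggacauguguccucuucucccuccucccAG

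Mir1224: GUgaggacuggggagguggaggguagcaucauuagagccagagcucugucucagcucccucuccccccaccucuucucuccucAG

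Both hairpins are 85 bases long and run from GU to AG, the ends of an intron, as do 30 of 997 hairpins in the table (3.01%). The annotated hairpin of miR-702 is 109 bases long and has neither of these ends, but its 5p arm begins with GUGAG at base 10. The hairpin of miR-484 (chr16:14159626-14159692, plus strand) is 67 bases long, against a median of 79 over all hairpins, and is printed with the mature miRNA in capitals to show that the miRNA begins at base 5.

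Mir484: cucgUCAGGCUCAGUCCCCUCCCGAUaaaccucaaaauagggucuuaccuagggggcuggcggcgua

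In the RefSeq gene table, Mir484 lies on chromosome 16 between Marf1 and Nde1, and Mir320 lies on chromosome 14 next to Polr3d. Neither overlaps another gene. Each mirtron lies within a protein-coding gene, Mir702 in Plod3, Mir877 in Abcf1, Mir1224 in Vwa5b2 and Mir3102 in Arhgef17. Mir664 overlaps the snoRNA gene Snora36b within Rab3gap2, whereas Mir1839 overlaps the long noncoding RNA gene 2900076A07Rik and no annotated snoRNA gene in this table.

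All 10 miRNAs were detected on all 16 arrays, so each passed the filter (detection on at least 8 arrays) in both genotypes. Of the 1881 miRNAs, 495 passed it. Values are the mean signal of a miRNA's probes after quantile normalization between arrays, on the log2 scale, and every difference is Dgcr8+/- minus WT from limma with Benjamini-Hochberg adjustment over the 495 miRNAs. Quantile normalization gives every array the same signal distribution, so a difference is a shift against the rest of that array. The arrays were not equally bright: the unnormalized signal of the median tested miRNA, on the log2 scale, was 5.80 to 6.31 in WT mice and 5.27 to 5.91 in Dgcr8+/- mice (difference −0.33, 2-sided exact permutation test, p = 0.00171). Foreign RNAs added with the hybridisation mix (hybridisation spike-ins) were also dimmer in Dgcr8+/- mice on average (difference −0.36, 2-sided exact permutation test, p = 0.0497), but this rested on 2 arrays, and without Dgcr8+/- replicate 2 and WT replicate 6, left out after their values were seen, the difference was −0.08 (exact permutation p = 0.186).

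The 10 miRNAs were all higher in Dgcr8+/- mice after quantile normalization, by 0.13 to 0.53 on the log2 scale, with a median of 0.23 against 0.04 for all 495 tested miRNAs; with no normalization the sign turned for 9 of them, and the exception was miR-1224-5p. After normalization 7 of 10 were higher at an adjusted p below 0.05 (background 28.3% of the tested miRNAs), and 0 of 10 were lower (background 27.9%). At an unadjusted p below 0.05, 0 were lower and 8 were higher by limma, and the methods' t-test gave 0 lower and 7 higher after adjustment. A positive difference was found in 55.6% of all tested miRNAs. The 10 were chosen with earlier results of these data known, so these counts describe them and are not a test of the group.

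**Figure D1:**
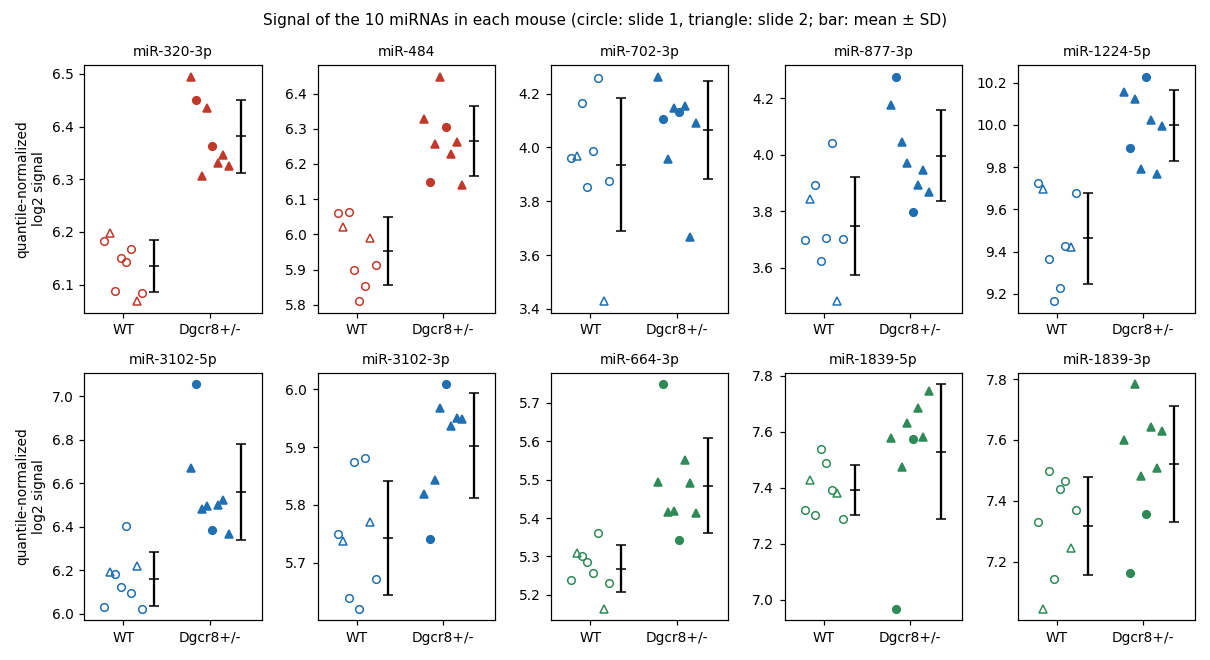
Quantile-normalized log2 signal of each of the 10 miRNAs in each of 8 WT (open) and 8 Dgcr8+/- (filled) mice, with the mean and SD beside the points, circles for slide 1 and triangles for slide 2. The y axes differ between panels. All Dgcr8+/- mice lie above all WT mice for miR-320-3p, miR-484 and miR-1224-5p, and Dgcr8+/- replicate 2 stands apart at 7.06 for miR-3102-5p and at 6.97 for miR-1839-5p; before normalization the differences have the opposite sign for 9 of the 10.

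In the capped class, the log2 signal of mmu-miR-320-3p was 6.07 at the lowest, 6.15 at the median and 6.20 at the highest in WT mice, and 6.31, 6.36 and 6.50 in Dgcr8+/- mice. The groups did not overlap. The mean was 6.14 ± 0.05 (SD, n = 8) in WT and 6.38 ± 0.07 (SD, n = 8) in Dgcr8+/- mice, a difference of 0.25 (SE 0.04, adjusted p = 6.40e-05 from limma), or 1.19-fold.

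mmu-miR-484 had log2 signals of 5.81, 5.95 and 6.06 (lowest, median and highest) in WT mice, against 6.14, 6.26 and 6.45 in Dgcr8+/- mice. Again every Dgcr8+/- mouse was above every WT mouse. The difference was 0.31 (SE 0.05, adjusted p = 0.000122 from limma), or 1.24-fold. When spots with an outlier mark were kept, the difference was 0.89 with an adjusted p of 0.163 from limma (4.57e-05 to 0.523 over its alternatives).

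Among the mirtrons, mmu-miR-1224-5p had the largest difference after quantile normalization. Its log2 signal was 9.16, 9.42 and 9.73 (lowest, median and highest) in WT mice and 9.77, 10.01 and 10.23 in Dgcr8+/- mice. The lowest Dgcr8+/- mouse was just above the highest WT mouse. The SD was 0.22 in WT and 0.17 in Dgcr8+/- mice (n = 8 each), and the means differed by 0.53 (SE 0.09, adjusted p = 0.000155 from limma), or 1.45-fold.

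mmu-miR-3102-5p had log2 signals of 6.02, 6.15 and 6.40 (lowest, median and highest) in WT mice and of 6.37, 6.50 and 7.06 in Dgcr8+/- mice. The ranges overlapped slightly, with 6 of 8 Dgcr8+/- mice above the highest WT mouse. The difference was 0.40 (SE 0.09, adjusted p = 0.000926 from limma), and without Dgcr8+/- replicate 2, the highest mouse, it was 0.33 (adjusted p = 0.000168). The other arm, mmu-miR-3102-3p, was at 5.62, 5.74 and 5.88 in WT mice and at 5.74, 5.94 and 6.01 in Dgcr8+/- mice. Its difference was 0.16 (SE 0.05, adjusted p = 0.0152 from limma), and 7 of 8 Dgcr8+/- mice were above the WT mean.

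mmu-miR-877-3p had a lowest, median and highest log2 signal of 3.48, 3.70 and 4.04 in WT mice, and of 3.80, 3.96 and 4.28 in Dgcr8+/- mice. The groups overlapped, although all 8 Dgcr8+/- mice were above the WT mean. The difference was 0.25 (SE 0.08, adjusted p = 0.0165 from limma). For mmu-miR-702-3p the ranges were 3.43 to 4.26 in WT and 3.67 to 4.26 in Dgcr8+/- mice, with medians of 3.96 and 4.12, and overlapped almost fully. Its difference of 0.13 did not pass the test (SE 0.10, 95% interval −0.09 to 0.35, adjusted p = 0.293 from limma), and was 0.06 without WT replicate 7, the lowest mouse, and 0.23 with the slide as a block. These 2 mirtrons also had the noisiest spots of the 10, with a median coefficient of variation between replicate spots of 20.8% for mmu-miR-877-3p and 18.4% for mmu-miR-702-3p, whereas it was 3.27% for mmu-miR-1224-5p.

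In the snoRNA-derived class, mmu-miR-664-3p had a lowest, median and highest log2 signal of 5.16, 5.27 and 5.36 in WT mice, against 5.34, 5.45 and 5.75 in Dgcr8+/- mice. The difference was 0.22 (SE 0.05, adjusted p = 0.00229 from limma), with 7 of 8 Dgcr8+/- mice above the highest WT mouse. The highest value was that of Dgcr8+/- replicate 2, and without this mouse the difference was 0.18 (adjusted p = 0.000613).

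mmu-miR-1839-5p was at 7.29, 7.39 and 7.54 (lowest, median and highest log2 signal) in WT mice, and at 6.97, 7.58 and 7.75 in Dgcr8+/- mice. The lowest and the highest of the 16 mice were both Dgcr8+/- mice. The difference was 0.14 (SE 0.09, 95% interval −0.05 to 0.32, adjusted p = 0.189 from limma), but without the lowest mouse, Dgcr8+/- replicate 2, it was 0.22 and passed the test (adjusted p = 0.000954, with 0.000954 to 0.316 over all single mice left out).

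mmu-miR-1839-3p was at 7.04, 7.35 and 7.50 in WT mice and at 7.16, 7.55 and 7.78 in Dgcr8+/- mice (lowest, median and highest log2 signal), so that the groups overlapped. The difference was 0.20 (SE 0.09, unadjusted p = 0.0301, adjusted p = 0.0529 from limma), just short of the threshold. It passed when any of 5 single mice was left out, WT replicates 3, 5 and 6 and Dgcr8+/- replicates 2 and 5, with adjusted p values from 0.00791 to 0.107 over all 16 such fits.

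By class, 2 of 2 capped miRNAs, 4 of 5 mirtrons and 1 of 3 snoRNA-derived miRNAs were higher and passed the test (background 28.3%). The count of the snoRNA-derived class is near this background. The class medians were 0.28, 0.25 and 0.20, and whether the classes differ was not tested. For 3 of 10 miRNAs all Dgcr8+/- mice lay above all WT mice (background 7.07%). With the methods' thresholds, which ask for a log2 difference beyond 0.4 and p under 0.05 with no adjustment, 2 of 10 were higher (background 10.5%), and these were mmu-miR-1224-5p and mmu-miR-3102-5p. The latter lay on the threshold with 0.40 and fell short of it in 6 of the 16 fits with 1 mouse left out, furthest with 0.33 without Dgcr8+/- replicate 2.

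Each miRNA was read by 2 to 4 probes, 25 in all, spread over 30 spots per miRNA on each array. The difference was positive at 25 of 25 probes after normalization. The probes of miR-702-3p had differences of 0.07 and 0.19, those of miR-1224-5p of 0.57 and 0.51, and those of miR-877-3p of 0.19 to 0.29.

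**Figure D2:**
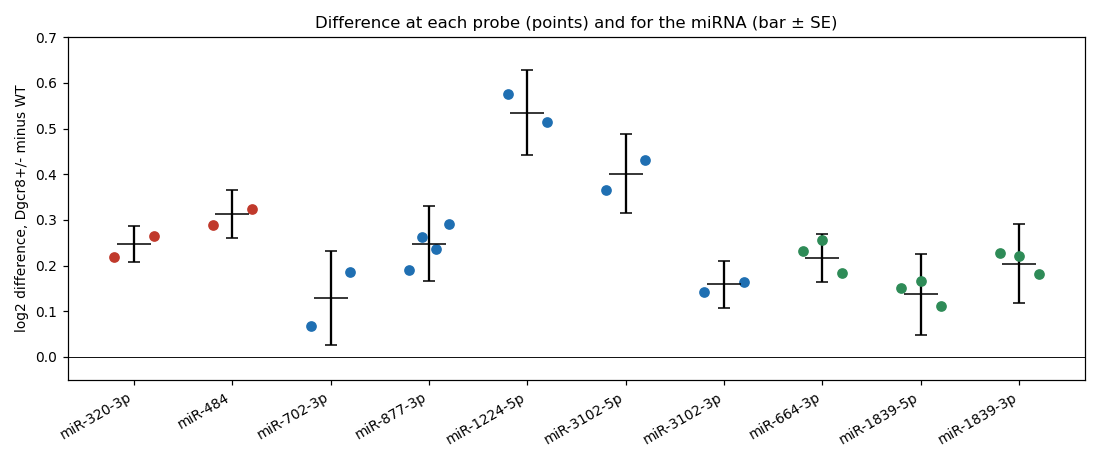
Log2 difference (Dgcr8+/- minus WT, quantile-normalized) at each of the 25 probes (points, coloured by class as red capped, blue mirtron and green snoRNA-derived), with the difference and SE of each miRNA from limma as a bar. All 25 points lie above 0; without normalization 9 of the 10 miRNAs have a negative difference.

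The slide was unevenly shared between genotypes. Slide 1 held 6 WT and 2 Dgcr8+/- arrays (replicates 2 and 5) and slide 2 held 2 WT and 6 Dgcr8+/- arrays. Within slide 2 the difference was positive for all 10 miRNAs, and within slide 1 for 8 of them. The exceptions were miR-1839-5p, with −0.12 on slide 1 and 0.21 on slide 2, and miR-1839-3p, with −0.11 and 0.46. The slide 1 values rest on 2 Dgcr8+/- mice. For miR-1839-5p replicate 2 was at 6.97 and replicate 5 at 7.57, with all WT mice at 7.29 to 7.54. For miR-1839-3p the same replicates were at 7.16 and 7.36, with all WT mice at 7.04 to 7.50. For mmu-miR-320-3p the differences were 0.27 on slide 1 and 0.24 on slide 2, for mmu-miR-484 0.29 and 0.27, and for mmu-miR-1224-5p 0.63 and 0.42. With the slide as a block, 7 of 10 were higher and 0 lower, against 151 higher and 144 lower among all 495 tested miRNAs, and the difference of miR-1839-5p was then 0.05.

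The direction of these differences depended on the scaling of the arrays. Without normalization, the median difference was −0.39 over all 495 tested miRNAs and −0.15 over the 10. Of all tested miRNAs, 59.2% were then lower at an adjusted p below 0.05 and 0 were higher. Of the 10, 2 were lower and 0 were higher by limma (3 lower and 0 higher at an unadjusted p below 0.05).

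mmu-miR-702-3p fell by 0.25 on the unnormalized log2 scale (SE 0.10, adjusted p = 0.0414 from limma, 0.0414 to 0.795 over its alternatives). mmu-miR-1839-5p fell by 0.37 (SE 0.16, adjusted p = 0.0495). Over its alternatives adjusted p values ran from 0.0264 to 0.683, and the 0.0264 came from 75th percentile scaling, where this miRNA was higher by 0.17. mmu-miR-1224-5p, with 0.05 (SE 0.13, adjusted p = 0.732), was the only one of the 10 with a positive unnormalized difference, and its unnormalized signals overlapped fully, 9.37 to 9.94 in WT and 9.13 to 10.17 in Dgcr8+/- mice.

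Scaling to the labelling spike-ins, foreign RNAs added to each sample before labelling, gave nearly the same values as no normalization. Their mean log2 signal was 10.52 to 11.17 in WT and 10.32 to 11.09 in Dgcr8+/- mice (difference −0.01, 2-sided exact permutation test, p = 0.936). On this scale the median of the 10 was −0.14 and the median of all tested miRNAs −0.38. No normalization, spike-in scaling and 75th percentile scaling differ only by a constant per array, so they move all miRNAs alike and leave each at the same distance from the median. After quantile normalization, after cyclic loess and without normalization, all 10 miRNAs were above the median of the tested miRNAs. Without normalization miR-1839-5p was above it by only 0.02, against an SE of 0.16 for its difference. The distance between the median of the 10 and the median of all was 0.19 after quantile normalization and 0.24 without it.

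**Figure D3:**
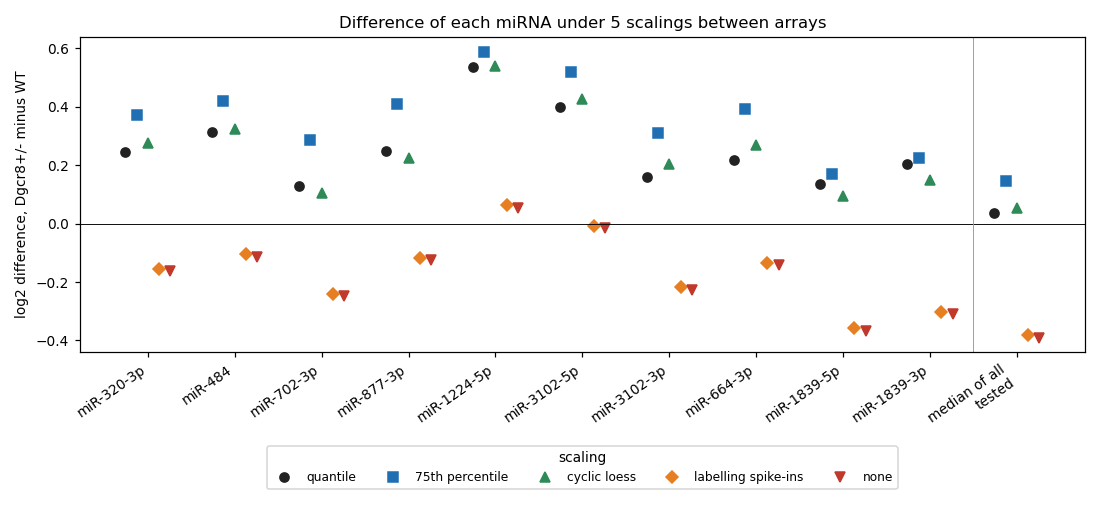
Log2 difference (Dgcr8+/- minus WT) of each of the 10 miRNAs, and the median over all tested miRNAs at the right, under 5 scalings between arrays. Quantile, 75th percentile and cyclic loess scaling give positive values for all 10, and spike-in scaling and no scaling give negative values for 9 of 10, while each miRNA lies above the median of all tested miRNAs under the same scaling. Without scaling miR-1839-5p is above that median by only 0.02.

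**Figure D4:**
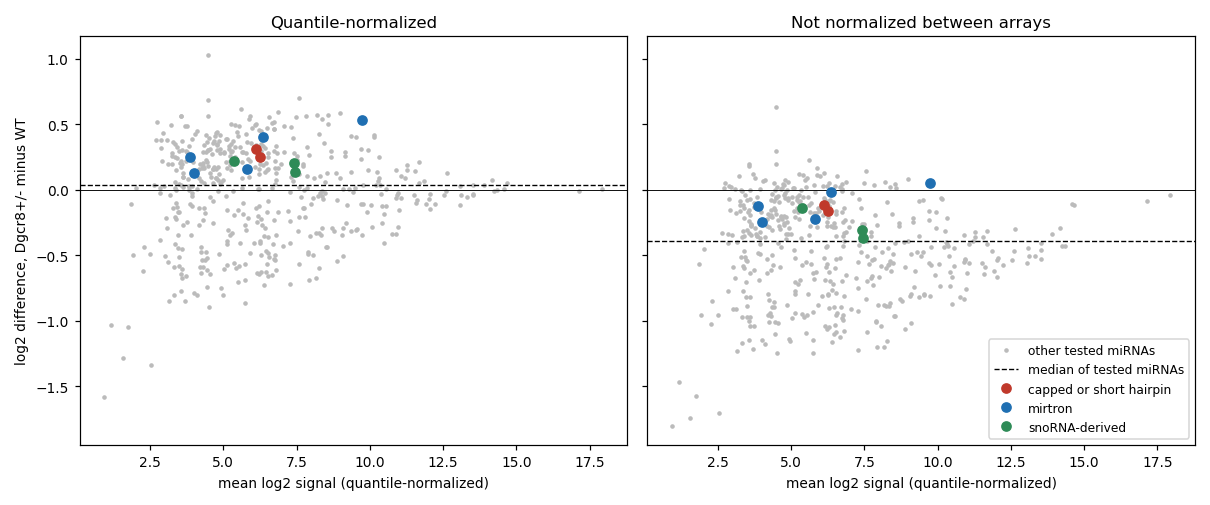
Log2 difference (Dgcr8+/- minus WT) against the mean quantile-normalized log2 signal for the 495 tested miRNAs (grey) and the 10 miRNAs (coloured by class), after quantile normalization at the left and without normalization at the right. The dashed line is the median of the tested miRNAs, 0.04 at the left and −0.39 at the right, and all 10 lie above it in both panels.

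Families cut by Drosha and Dgcr8 give a comparison on the same arrays, beside a background of 27.9% lower and 28.3% higher among all tested miRNAs. Of 17 tested members of the let-7 and miR-98 family, 1 was lower and 2 were higher, with a median of −0.04. Of 11 miR-30 miRNAs, 1 was lower and 5 were higher, with a median of 0.05 over the 11. The 5 higher ones had differences of 0.09 to 0.38, a range that overlaps that of the 10. Of 6 tested miR-29 miRNAs, 0 were lower and 0 were higher by limma, with differences of −0.05 to 0.07. The median of the 10 miRNAs described here was above those of all 3 families, but the lists were not tested against each other.

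Without normalization the medians were −0.51 for let-7 and miR-98, −0.37 for miR-30 and −0.43 for miR-29, all lower than the −0.15 of the 10. The block of names from miR-6896 to miR-7094, which holds many miRNAs annotated as mirtrons, went further in the positive direction. Of its 44 tested miRNAs (400 on the array), 30 were higher and 0 lower, with a median of 0.36 after normalization and −0.01 without it.

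**Figure D5:**
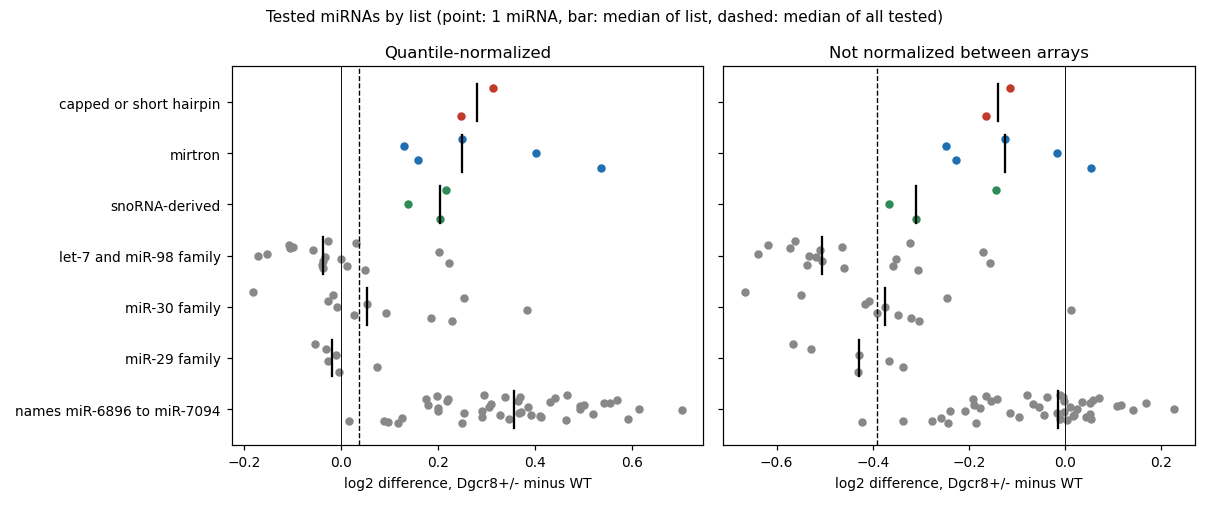
Log2 difference (Dgcr8+/- minus WT) of each tested miRNA in 7 lists, after quantile normalization at the left and without it at the right, with the median of each list as a bar and the median of all tested miRNAs as a dashed line. The medians of the 3 classes are 0.28, 0.25 and 0.20 at the left and −0.14, −0.13 and −0.31 at the right, and all points of the 3 classes lie to the right of the dashed line in both panels.

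mmu-miR-451a takes the opposite shortcut, since its hairpin needs Drosha and Dgcr8 but not Dicer. Its log2 signal was 9.27 ± 0.24 (SD, n = 8) in WT and 9.15 ± 0.21 (SD, n = 8) in Dgcr8+/- mice, a difference of −0.12 that did not pass the test (SE 0.11, adjusted p = 0.359 from limma). It was lower without normalization (−0.62, adjusted p = 0.00717 from limma) and with scaling to labelling spike-ins (−0.61, adjusted p = 0.00135), and adjusted p values over all its alternatives ran from 0.00135 to 0.615. After quantile normalization the difference was −0.06 without Dgcr8+/- replicate 2 and −0.06 without WT replicate 2. It is abundant in red blood cells. Of their other markers, miR-486a-5p was lower (adjusted p = 0.000599 from limma) but was detected in 8 WT and only 3 Dgcr8+/- mice. miR-144-3p did not pass the test (adjusted p = 0.217 from limma). The part of blood in the value of miR-451a was not tested.

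The arms opposite to these miRNAs were mostly below detection. miR-320-5p, miR-702-5p, miR-877-5p, miR-1224-3p and miR-3102-3p.2-3p were detected on 0 arrays, and miR-664-5p was detected in 2 WT mice and 1 Dgcr8+/- mouse. The hairpin of miR-3102 also gives mmu-miR-3102-5p.2-5p, which lies directly downstream of miR-3102-5p and was detected on all 16 arrays. Its log2 signal rose from 4.46 ± 0.07 (SD, n = 8) to 4.73 ± 0.15 (SD, n = 8), a difference of 0.27 (SE 0.06, adjusted p = 0.00122 from limma). All Dgcr8+/- mice lay above all WT mice, at 4.59 to 5.06 against 4.39 to 4.59, and the difference was −0.09 without normalization.

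mmu-miR-3102-5p.2-5p: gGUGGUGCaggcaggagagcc

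This sequence is printed because 3 of the 4 named products of the miR-3102 hairpin were measured, and all 3 were higher after normalization. Its seed was shared with no other miRNA of the table.

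Where both arms of a hairpin were tested, a constant factor per array cancels in the ratio of the 5p to the 3p arm. Quantile normalization is not such a factor, so the ratio of normalized values can still move with it. The log2 ratio of miR-3102-5p to miR-3102-3p was 0.41 ± 0.19 (SD, n = 8) in WT and 0.66 ± 0.30 (SD, n = 8) in Dgcr8+/- mice, a difference of 0.24 (SE 0.12, 95% interval −0.01 to 0.49, adjusted p = 0.186 from limma over 80 hairpins), and of 0.15 without Dgcr8+/- replicate 2. For miR-1839 the ratio was 0.08 ± 0.22 (SD, n = 8) in WT and 0.01 ± 0.18 (SD, n = 8) in Dgcr8+/- mice, a difference of −0.07 (SE 0.10, 95% interval −0.27 to 0.13, adjusted p = 0.668 from limma). Neither hairpin passed the test, against 17.5% of the 80 hairpins. Without normalization the differences were 0.21 for miR-3102 (adjusted p = 0.241 from limma) and −0.06 for miR-1839 (adjusted p = 0.685).

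These miRNAs were also rich in G and C. The GC content of the 8 with a sequence was 40.9% to 72.7% with a median of 62.3%, against a median of 50% in the 426 tested miRNAs that have a sequence in the table. Both snoRNA-derived miRNAs with a sequence were at 40.9%, and the other 6 were at 59.1% or above. Across the 426 miRNAs, which share the arrays, GC content and log2 difference had a Pearson r of 0.39 and a Spearman rho of 0.45 after normalization, and of 0.42 and 0.47 without it. Of the 132 tested miRNAs with at least 58% GC, a limit chosen after the values were seen, 77 (58.3%) were higher and 20 were lower, with a median difference of 0.29. The part of GC content in the differences of the 10 miRNAs was not tested.

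The 2 miRNAs that begin with GUGAG, miR-1224-5p and miR-3102-5p, had the largest differences of the 10 after quantile normalization. In all, 5 tested miRNAs begin with these letters, and the other 3 are miR-6944-5p, miR-7018-5p and miR-7070-5p. All 5 were higher after normalization (background 28.3% of the tested miRNAs), by 0.34 to 0.53 with a median of 0.41. The 3 that are not among the 10 belong to the block of names from miR-6896 to miR-7094, in which 30 of 44 were higher with a median of 0.36. The GUGAG group was formed after the values were seen and is a description.

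The 10 miRNAs did not all vary together from mouse to mouse, although some pairs were correlated. Over their 45 pairs, the correlation of the deviations from the genotype mean had a median of −0.00 over 16 arrays. Without Dgcr8+/- replicate 2 the median was 0.08. Over 16 arrays the correlations ranged from −0.65, between the arms of miR-3102, to 0.74, between miR-877-3p and miR-664-3p. Without that mouse these 2 pairs were at −0.51 and 0.67. The miRNA whose deviations were most like those of miR-320-3p was miR-3102-5p.2-5p (Pearson r = 0.75 over 16 arrays, 0.87 without Dgcr8+/- replicate 2), and for miR-484 it was miR-378a-3p (0.74 and 0.72). For the mirtrons these were miR-7666-5p for miR-702-3p (0.92 with and without that mouse), miR-30d-5p for miR-877-3p (0.85 and 0.80), miR-5128 for miR-1224-5p (0.88 and 0.88) and miR-204-5p for miR-3102-3p (0.85 and 0.80).

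The likenesses of miR-3102-5p and miR-664-3p leaned on 1 mouse. For miR-3102-5p the nearest was miR-181c-5p, with r = 0.85 that fell to 0.49 without Dgcr8+/- replicate 2, and for miR-664-3p it was miR-1904, with 0.81 and 0.42. miR-1839-5p was nearest to let-7e-5p (0.96 and 0.83) and miR-1839-3p to miR-1949 (0.79 and 0.74). These correlations are descriptions over arrays that share a normalization. Each nearest miRNA was picked for the highest correlation among all other tested miRNAs, which raises r by itself, and none was tested.

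The LV wall carries ciliated ependymal cells, and 5 of the 7 ependymal markers (the miR-34b/c and miR-449 family) were detected on all 16 arrays. Their summed log2 level was 9.09 to 10.33 in WT and 9.77 to 10.62 in Dgcr8+/- mice, and miR-449b and miR-449c-5p were detected on 0 arrays. All 5 tested ones had positive differences, of 0.15 to 0.35, of which 0 passed the test by limma and that of miR-34c-5p had an unadjusted p of 0.0347. Over all 7 marker lists, 25 of 28 markers were tested, 4 were lower (background 27.9% of the tested miRNAs) and 4 were higher (background 28.3%). Among them the choroid plexus marker miR-204-5p, whose deviations were most like those of miR-3102-3p, had a difference of −0.29 (adjusted p = 0.0136 from limma). The choroid plexus marker miR-211-5p did not pass the test (0.002, adjusted p = 0.989 from limma), and miR-204-3p was detected on 0 arrays. The summed log2 level of the 3 choroid plexus markers was 9.06 to 9.53 in WT and 8.66 to 9.30 in Dgcr8+/- mice. Most of this sum was miR-204-5p, with a WT mean of 9.25 against 4.09 for miR-211-5p and 1.81 for miR-204-3p. The part of cell composition in the differences of the 10 miRNAs was not tested. Dgcr8 mRNA was not measured by these arrays, so the genotype labels were not checked against it.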

How the data were processed

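Total RNA (100 ng) was labelled with Cy3 and hybridised to Agilent mouse miRNA arrays. The authors deposited the scanner output, in which the background-corrected signal intensity of each spot is not normalized between arrays, and a table of total signal per miRNA that equals the total gene signal in the scanner files. Feature Extraction is version 10.5.1.1 in the submitters' processing notes and 10.7.3.1 per the file headers. No spot of these miRNAs was saturated.

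Control spots and spots with an outlier mark (2.25% to 3.29% per array) were left out. The mean over a probe's spots was quantile-normalized across 4415 probes, as in the methods, then averaged per miRNA, floored at 1 and put on the log2 scale. Genotypes were compared with limma 3.58.1 (R 4.3.3) over all miRNAs detected on at least 8 of 16 arrays, and p-values were adjusted by Benjamini-Hochberg (threshold 0.05). The test was checked on simulated data made from values already normalized, so this check does not cover the choice of scaling. One alternative was the methods' t-test. Summed signal was 21545400 to 29763400 in WT and 18528900 to 23440600 in Dgcr8+/- mice, and precision is limited by the number of arrays. Alternatives covered scaling, background, floor, filter, outlier spots, probe choice, slide, replicate block and single mice. Named miRNAs are the 10, their other arms, miRNAs with a shared seed, the nearest by correlation, miR-451a and the lists by name, and marker miRNAs and the GUGAG group besides. The members and lists were chosen with earlier results of these data known.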

Additional observations from a re-analysis of the deposited data

Results flagged for a closer look

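In 26 groups of 8 arrays searched (the 10 miRNAs and 3 array measures in each genotype), 4 had an array far from the others, and chance gives about 1 in 20, or 1.3. Dgcr8+/- replicate 2 was highest for miR-3102-5p at 7.06, with the others at 6.37 to 6.67. The same mouse was lowest for miR-1839-5p at 6.97, with the others at 7.47 to 7.75. Its hybridisation spike-ins, which are added with the hybridisation mix, were lowest at 13.1 on the log2 scale, with the others at 14.3 to 14.5. For WT replicate 6 these spike-ins were highest, at 15.4, with the others at 14.3 to 14.7. Without Dgcr8+/- replicate 2, 9 of the 10 miRNAs were higher and 0 were lower, and of all 495 tested miRNAs 170 were higher and 151 lower.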

How the results depend on the processing

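With quantile scaling and single mice left out, 7 to 9 of the 10 miRNAs were higher and 0 lower. With no normalization and with spike-in scaling, respectively, 0 and 0 were higher and 2 and 1 were lower, and the log2 differences were −0.16 and −0.15 for miR-320-3p, −0.11 and −0.11 for miR-484, −0.25 and −0.24 for miR-702-3p, −0.13 and −0.12 for miR-877-3p, 0.05 and 0.06 for miR-1224-5p, −0.015 and −0.0065 for miR-3102-5p, −0.23 and −0.22 for miR-3102-3p, −0.14 and −0.13 for miR-664-3p, −0.37 and −0.36 for miR-1839-5p, −0.31 and −0.30 for miR-1839-3p and −0.093 and −0.084 for miR-3102-5p.2-5p. The medians were −0.15 and −0.14 for the 10 and −0.39 and −0.38 for all tested miRNAs, of which 293 and 262 were lower and 0 and 0 higher, against 138 and 140 after quantile scaling. With 75th percentile scaling 9 of the 10 and 210 of all tested miRNAs were higher and 126 lower. The median of the 10 was 0.38 then and 0.12 with normexp. With the deposited total signals 5 of the 10 were higher, and miR-877-3p (adjusted p = 0.120, 0.00208 to 0.504 over its alternatives) and miR-3102-3p (0.0729, 0.000102 to 0.188) did not pass. The causes were not tested.

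Whether the replicate numbers pair the mice is not known, since the labels give no litters. The correlation of deviations between mice of the same number ran from −0.14 to 0.50. It was not compared with that between mice of different numbers, so it cannot decide this. With a replicate block 8 of the 10 were higher and 0 lower, and miR-1839-3p passed (adjusted p = 0.00733, 0.00733 to 0.231 over its alternatives); the numbers of all tested miRNAs called were 147 higher and 140 lower. The arm ratios of miR-3102 and miR-1839 did not pass under any alternative run. The dim signals of miR-702-3p and miR-877-3p limit what these arrays show of them.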
